A study of Mus musculus with 6 samples.

Results

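The genes described here are 29 interferon-stimulated genes, the transcripts that cells switch on when interferon binds its receptor. They were chosen by name out of the 49315 genes in the count tables, and all 29 were found. Cerebral cortex was sequenced from wild type mice in 2 groups of 3 libraries each. The shScr group received AAV-PHP.eB-Gfap-GFP-shScr, the scramble control, and the shFabp7 group received AAV-PHP.eB-Gfap-GFP-shFABP7, which carries an shRNA against Fabp7. Both vectors were injected behind the eye at 21 days of age. Both groups were then given lipopolysaccharide (LPS, the endotoxin of Gram-negative bacteria) at 1 mg/kg, 3 injections a week apart starting at 4 months of age, with tissue taken 24 h after the last one. The Gfap promoter drives the shRNA and GFP mainly in astrocytes, whereas the RNA came from all cells of the tissue. No library without LPS was analysed here, so the genes' response to LPS itself was not compared, and every comparison is of shFabp7 with shScr under LPS. The labels do not say whether each library is a separate animal. The p-values therefore measure the spread between these libraries alone, which may be technical in part. Reads of the female-expressed gene Xist, given below, differed within each group, so the libraries of a group did not all come from the same animal. Values of single libraries are given in the order of libraries 1, 2 and 3 of each group.

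Interferons of type I signal through the receptor chains Ifnar1 and Ifnar2 and the kinases Jak1 and Tyk2 to a complex that holds Stat2 and Irf9. This complex binds the interferon-stimulated response element, a repeated GAAA-type motif in the promoters of antiviral genes. LPS reaches the same genes because its receptor Tlr4 can induce interferon-beta through Irf3, and microglia, astrocytes and endothelial cells of the brain all respond to interferon.

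The element is shown here in promoters of 6 of the 29 genes, chosen to cover the Ifit cluster, the modifier Isg15, the membrane protein gene Bst2 and the signalling gene Stat2, with their values known. The stretches come from RefSeq windows of GRCm38.p6, lie upstream of the annotated start site, and are written along the strand of the gene. Capitals mark the core of the response element on either strand, which is GAAA, any 2 bases and GAAA again, with overlapping matches counted separately. Ifit1 lies at chr19:34640770-34640828 (plus strand), Ifit3 at chr19:34583358-34583431 (plus), Ifit3b at chr19:34607754-34607827 (plus), Isg15 at chr4:156200860-156200911 (minus), Bst2 at chr8:71537572-71537617 (minus) and Stat2 at chr10:128270261-128270300 (plus).
Ifit1: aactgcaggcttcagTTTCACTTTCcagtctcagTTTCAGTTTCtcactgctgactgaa
Ifit3: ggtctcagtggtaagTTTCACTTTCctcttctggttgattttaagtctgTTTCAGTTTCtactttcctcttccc
Ifit3b: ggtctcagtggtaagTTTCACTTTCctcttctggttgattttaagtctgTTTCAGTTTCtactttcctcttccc
Isg15: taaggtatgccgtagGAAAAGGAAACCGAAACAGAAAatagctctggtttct
Bst2: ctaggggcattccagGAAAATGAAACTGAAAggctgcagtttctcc
Stat2: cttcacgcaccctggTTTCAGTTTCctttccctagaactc

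Of the 22 genes with a promoter window in the RefSeq table, 13 (59.1%) held the core in a window of 300 bases, against 3.99% of the 27025 genes in that table. The stretches of Ifit3 and Ifit3b were the same letter for letter, and Isg15 held 3 overlapping matches. The core of the interferon gamma element, TTCCNGGAA, occurred in 3 of the 22, namely Ifit2, Gbp7 and Bst2, against 1.35% of all genes. A match describes these letters only and not a bound site. The core was not found in the windows of Oasl2 and Irf7, and Usp18, Zbp1 and Parp14 had no window in the table.

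Total counts per library ranged from 16914012 to 18991235, and counts of the 29 genes from 11 (Zbp1 in shFabp7 library 2) to 790 (Stat2 in shFabp7 library 3). Fabp7 had 484, 285 and 290 reads in shScr against 93, 41 and 66 in shFabp7, so the groups did not overlap for the targeted gene (log2 fold change -2.31, SE 0.35, adjusted p = 0.0704 in edgeR and 5.23e-13 in DESeq2). Some libraries stood apart in ways the labels do not give. shScr library 3 and shFabp7 libraries 2 and 3 had 12643 to 17866 reads of Xist, which female cells express, and the other 3 libraries had 44 to 70. shFabp7 library 2 also held 223 reads of 4 Y-linked genes, against 27 and 36 in the other Xist-rich libraries and 3435 to 3859 in the rest. Markers of the hippocampus had their highest mean level in shScr library 3, at 4.51 in log2 CPM against 1.74 to 3.24 elsewhere, and transcripts of hypothalamic neuropeptides were highest in shScr library 1, with 244 reads of Pmch there and 3 to 24 elsewhere. Striatum markers were highest in shFabp7 library 3 and shScr library 1, at 7.11 and 6.77 against 5.17 to 6.02.

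Of the 29 interferon-stimulated genes 0 passed the threshold of 0.05 on the adjusted p over all 17185 genes tested (edgeR's quasi-likelihood test). Across all genes tested 0.116% passed in either direction and 0.0582% on the lower side. DESeq2 called 1 of them, Ifitm3, lower (adjusted p = 0.0173), where 2.0% of all genes were called lower. The fitted values lay mostly below 0: 23 of 29 log2 fold changes were negative, and the median was -0.33 against -0.01 for all genes tested. At an unadjusted p under 0.05, 10 of 29 (34.5%) were lower and 0 higher, beside 8.32% lower and 8.44% higher among all genes. These 10 were Ifit1, Ifit3, Ifit3b, Oasl2, Usp18, Zbp1, Ifitm3, Parp14, Gbp7 and Irf7. Ifit3 and Ifit3b, whose transcripts share sequence, are counted separately here and below. For 8 of 29 (27.6%) all shFabp7 libraries lay below all shScr libraries, beside 11.5% of all genes, and for 0 of 29 the order was the opposite, beside 11.4%. The number called depended on the setting. It was 7 with no filter on low counts (Ifit1, Ifit3, Ifit3b, Oasl2, Usp18, Ifitm3 and Parp14), where 2.66% of all genes were called lower. It was 4 without shScr library 2 (Ifit1, Ifit3, Ifit3b and Oasl2), beside 2.26% of all genes, and 1 without shScr library 1 (Ifitm3), beside 0.462%.

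The mean log2 CPM of the 29 genes was 2.90, 2.98 and 3.29 in shScr against 2.64, 2.67 and 2.90 in shFabp7. The group means were 3.06 ± 0.21 and 2.74 ± 0.14 (SD, n = 3 each), a difference of -0.32. shScr library 1 and shFabp7 library 3 had the same value to 2 decimals, and shScr library 3 lay furthest above the shFabp7 libraries. shScr library 3 was the highest of the 6 libraries for 21 of 29 genes (72.4%), against 16.5% of all genes tested. shFabp7 library 2 was the lowest for 11 and shFabp7 library 1 for 8. Without shScr library 3 the difference was -0.20, with 24 of 29 genes still below 0. At an unadjusted p under 0.05, 5 in place of 10 were then lower, beside 7.56% of all genes. That count was also 5 without shFabp7 library 1 and 4 without shFabp7 library 2, beside 6.93% and 4.77%. Without shScr library 1, shScr library 2 or shFabp7 library 3 it was 13, 12 and 11, beside 6.89%, 10.4% and 6.20%. With sex as a covariate it was 14, beside 6.33%. In a fit that held the hippocampal marker score as a covariate, which was chosen after the data were seen, the median was -0.10. In it 0 of 29 had an unadjusted p under 0.05 on the lower side, beside 3.68% of all genes. The score was 3.24, 2.49 and 4.51 in shScr against 2.32, 1.74 and 2.29 in shFabp7, without overlap. This fit therefore cannot fully separate the score from the group, and no conclusion is drawn from it. Among the libraries with few Xist reads (2 shScr and 1 shFabp7) the difference was -0.30, with 25 of 29 genes below 0. Among those with many (1 shScr and 2 shFabp7) it was -0.51, with 26 of 29 below 0. The 1 shScr library with many Xist reads is library 3, the highest for 21 of 29 genes. Each of these differences rests on 1 library in 1 of the groups.

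**Figure D1:**
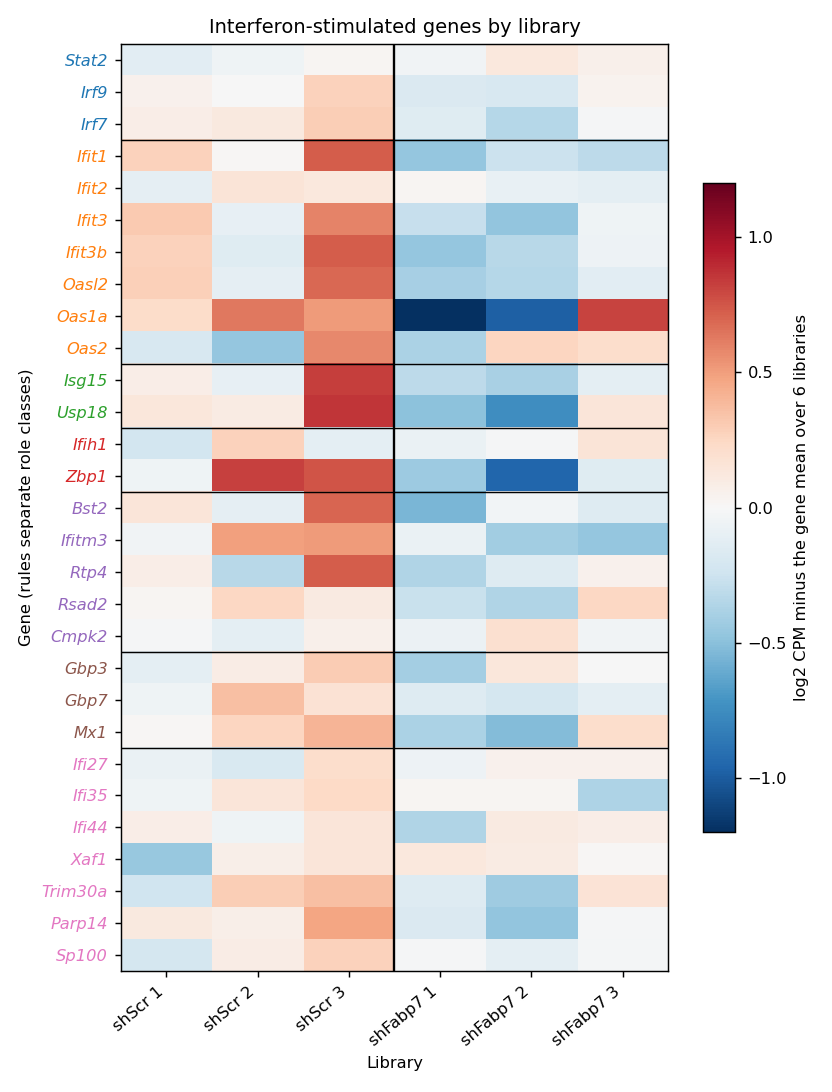
Heat map of the 29 interferon-stimulated genes (vertical axis, with rules between role classes) in 6 libraries (horizontal axis), coloured by log2 CPM minus the gene's mean over the libraries. shScr library 3 is the highest library for 21 genes, and Oas1a differs among the shFabp7 libraries more than other genes do.

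The 3 genes whose proteins carry the interferon signal into the nucleus had log2 fold changes from -0.33 to 0.10. Stat2, a subunit of the activating complex, had 37.2, 39.2 and 41.2 CPM in shScr against 39.4, 44.2 and 42.2 CPM in shFabp7. The groups overlapped, and its log2 fold change was 0.10 (SE 0.08, adjusted p = 0.560 in edgeR). Irf9, the DNA-binding partner of Stat2, had 21.2, 20.4 and 24.7 CPM in shScr against 18.1, 17.9 and 21.1 CPM in shFabp7. Its log2 fold change was -0.21 (SE 0.11), and shFabp7 library 3 reached into the shScr range. Irf7, the factor that amplifies interferon transcription, had 8.38, 8.62 and 9.71 CPM in shScr against 7.17, 6.26 and 7.85 CPM in shFabp7. All 3 shFabp7 values of Irf7 lay below the lowest shScr value (log2 fold change -0.33, SE 0.14, adjusted p = 0.286 in edgeR). Irf9 shares 123 bp of exon with Rnf31 on the same strand, and Irf7 shares 45 bp with Phrf1 on the opposite strand.

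The IFIT proteins bind foreign RNA and stop its translation, and the OAS enzymes make oligoadenylates that activate the nuclease RNase L. For the 7 genes of this class the median log2 fold change was -0.59, and 6 were below 0, beside 51.5% of all genes tested. At an unadjusted p under 0.05, 4 of the 7 were lower, beside 8.32% of all genes. The Ifit genes lie side by side on chromosome 19 (GRCm38), where Ifit2 spans 34550694 to 34576419, Ifit3 34583531 to 34588731, Ifit3b 34607970 to 34613401 and Ifit1 34640871 to 34650009. Ifit1 had 7.40, 6.17 and 10.1 CPM in shScr against 4.42, 5.11 and 4.91 CPM in shFabp7. The shFabp7 mean was 61.0% of the shScr mean, with no overlap between the groups (log2 fold change -0.71, SE 0.20, adjusted p = 0.140 in edgeR). Ifit3, a partner of Ifit1, had 22.6, 17.0 and 27.4 CPM in shScr against 15, 13.1 and 17.5 CPM in shFabp7. Its groups overlapped at shScr library 2, and the log2 fold change was -0.55 (SE 0.18). Ifit3b, whose promoter stretch equals that of Ifit3, followed the same order of shScr libraries, with 10.3, 7.66 and 14.0 CPM against 6.16, 6.75 and 8.11 CPM in shFabp7 and a log2 fold change of -0.60. Of the distinct 50-base stretches in Ifit3 transcripts 51.2% also occur in Ifit3b, so a read within them fits both genes. Whether such reads were counted for either gene or dropped was not examined, and the separate values of the pair are uncertain. Ifit2, which lies in the same cluster and whose windows held no core of the response element, had 17.0, 20.4 and 20.0 CPM in shScr against 18.6, 17.2 and 16.8 CPM in shFabp7, overlapping values with a log2 fold change of -0.13 (SE 0.10). The ratio of Ifit1 to Ifit2 reads was 0.436, 0.303 and 0.505 in shScr and 0.238, 0.298 and 0.293 in shFabp7.

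Oasl2, an OAS-like gene, had 13.4, 10.2 and 17.8 CPM in shScr against 8.37, 8.70 and 10.1 CPM in shFabp7. The highest shFabp7 library lay just under the lowest shScr library (log2 fold change -0.61, SE 0.19, adjusted p = 0.188 in edgeR). Oas1a had 2.23, 2.98 and 2.73 CPM in shScr against 0.837, 0.973 and 3.36 CPM in shFabp7, so shFabp7 library 3 was the highest of all 6 and the other 2 were the lowest. Its log2 fold change of -0.59 had an SE of 0.50, and 57.6% of its 50-base stretches also occur in Oas1g, which makes its value uncertain. Oas2 had a log2 fold change of 0.02 (SE 0.31), whose sign turned in 5 of 15 alternatives.

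Isg15, a ubiquitin-like modifier that is attached to other proteins, had 3.37, 2.98 and 5.68 CPM in shScr against 2.57, 2.43 and 2.94 CPM in shFabp7. The groups did not overlap, although shFabp7 library 3 lay close to shScr library 2, and shScr library 3 stood well above the rest. The log2 fold change was -0.60 (SE 0.27, adjusted p = 0.299 in edgeR), and it was 0.06 with the hippocampal score as a covariate. Usp18, the protease that removes Isg15 and restrains the interferon receptor, had 3.70, 3.62 and 6.11 CPM in shScr against 2.39, 2.01 and 3.74 CPM in shFabp7. Its log2 fold change was -0.71 (SE 0.29), and shFabp7 library 3 overlapped with shScr libraries 1 and 2.

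Of the nucleic acid sensors, Ifih1 overlapped between groups and Zbp1 did not. Ifih1, which encodes the sensor of long double-stranded RNA, had 7.46, 10.5 and 8.02 CPM in shScr against 8.25, 8.64 and 9.66 CPM in shFabp7, with a log2 fold change of 0.03 (SE 0.16) whose sign turned in 5 of 15 alternatives. Zbp1, a sensor of Z-form nucleic acids that can start necroptosis, had 1.25, 2.29 and 2.18 CPM in shScr against 0.956, 0.669 and 1.17 CPM in shFabp7. All shFabp7 libraries lay below the shScr libraries, and the log2 fold change of -1.02 (SE 0.34, adjusted p = 0.193 in edgeR) was the most negative of the 29. Zbp1 was also one of the least abundant, with 11 reads in its lowest library.

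Ifitm3, which blocks the fusion of viruses in endosomes, had 15.2, 21.9 and 22.2 CPM in shScr against 14.8, 11.7 and 11.3 CPM in shFabp7. The means were 19.8 ± 3.98 and 12.6 ± 1.95 CPM (SD, n = 3 each), and shScr library 1 lay only just above the shFabp7 range. Its log2 fold change was -0.65 (SE 0.17, adjusted p = 0.131 in edgeR), and this gene had the lowest p of the 29 in both tools. Over the 15 alternatives the value ranged from -0.81 to -0.56 and passed in 4. It was -0.56 both without shScr library 3 and with the hippocampal score as a covariate, where the adjusted p was 0.255 and 0.685. Bst2, the tetherin that holds budding virus at the cell surface, had 7.62, 6.38 and 11.2 CPM in shScr against 4.72, 6.75 and 6.19 CPM in shFabp7, overlapping groups with a log2 fold change of -0.51 (SE 0.23). Rtp4, a chaperone of membrane receptors, had 4.79, 3.62 and 7.53 CPM in shScr against 3.53, 4.07 and 4.70 CPM in shFabp7. Its log2 fold change was -0.37, and the sign turned without shScr libraries 1 and 3 (0.18) and with the hippocampal score (0.31). Rsad2 and Cmpk2, a radical enzyme and a kinase that act in turn on antiviral nucleotides, are neighbours on chromosome 12 at 26442753 to 26456452 and 26469204 to 26479835. Cmpk2 had 30.4, 28.2 and 31.9 CPM in shScr against 29.1, 35.0 and 29.7 CPM in shFabp7, and Rsad2 had 3.97, 4.63 and 4.20 CPM in shScr against 3.23, 3.04 and 4.64 CPM in shFabp7. Both overlapped between groups, with log2 fold changes of 0.05 and -0.23.

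The guanylate-binding proteins and Mx1 are large GTPases that attack pathogen membranes and viral ribonucleoproteins. Gbp7 had 11.1, 14.7 and 12.9 CPM in shScr against 10.3, 9.91 and 10.6 CPM in shFabp7, without overlap (log2 fold change -0.33, SE 0.13, adjusted p = 0.245 in edgeR). Gbp3, its neighbour on chromosome 3, had 10.5, 12.1 and 14.1 CPM in shScr against 8.61, 12.5 and 11.4 CPM in shFabp7, overlapping groups with a log2 fold change of -0.17. Mx1 had 1.58, 1.86 and 2.07 CPM in shScr against 1.20, 1.09 and 1.81 CPM in shFabp7, with a log2 fold change of -0.42 (SE 0.29).

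Of the other 7 genes, Parp14, an ADP-ribosyltransferase, was the one whose groups did not overlap. It had 11.3, 10.9 and 14.5 CPM in shScr against 9.26, 7.48 and 10.3 CPM in shFabp7 (log2 fold change -0.43, SE 0.16, adjusted p = 0.222 in edgeR). Ifi27, a small membrane protein gene of mitochondria and nucleus, had 32.1, 29.9 and 39.3 CPM in shScr against 32.4, 35.2 and 35.2 CPM in shFabp7. Its log2 fold change was 0.02, and the sign turned in 3 of 15 alternatives. Trim30a, a restraint on Toll-like receptor signalling, had 5.12, 7.45 and 7.80 CPM in shScr against 5.44, 4.50 and 6.78 CPM in shFabp7, with a log2 fold change of -0.28. Ifi35, Ifi44, Sp100 and Xaf1 had overlapping groups and log2 fold changes of -0.22, -0.10, -0.12 and 0.14. In all 7 genes shScr library 3 was the highest of the 6 libraries, including Xaf1 and Ifi27, whose group means were slightly higher in shFabp7.

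**Figure D2:**
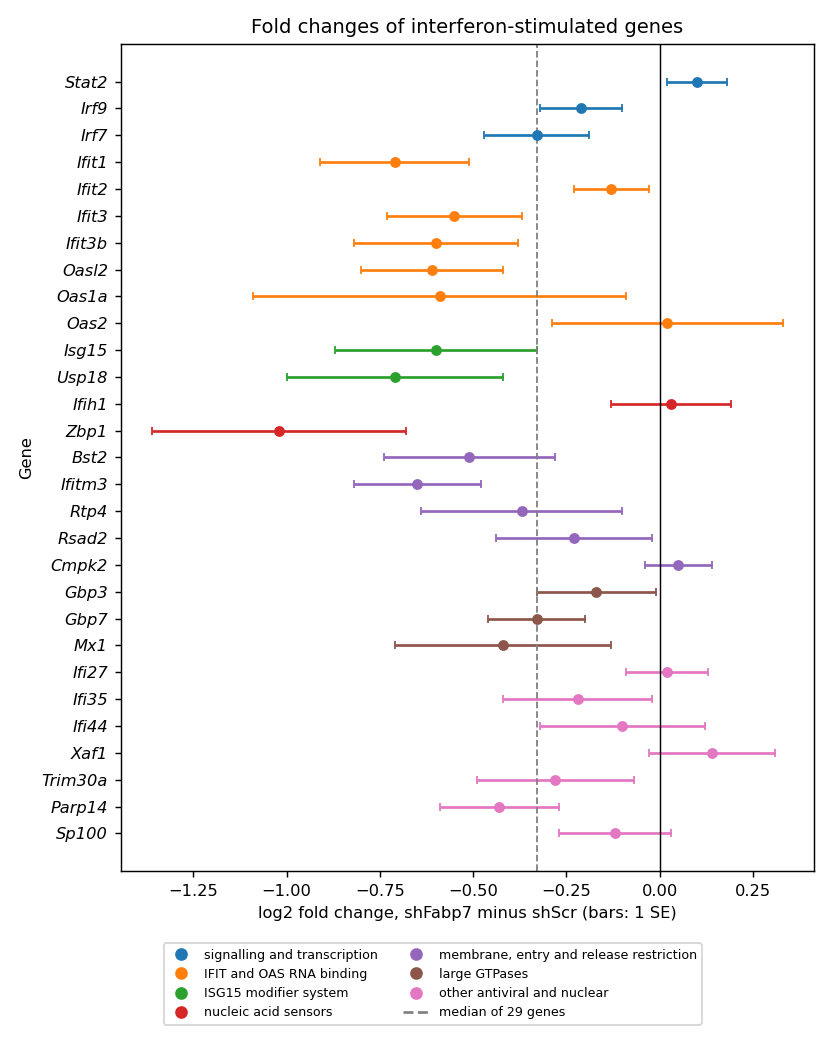
Log2 fold changes of the 29 genes, shFabp7 minus shScr (horizontal axis, points with bars of 1 SE), by gene (vertical axis) and coloured by role class. The dashed line marks the median of -0.33, and values run from -1.02 for Zbp1 to 0.14 for Xaf1.

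Per kilobase of exon the most abundant transcripts were Ifitm3 at 23.9 ± 7.12 and Ifi27 at 23.2 ± 2.23 CPM per kb (SD over the 6 libraries of both groups). Their means lay within this spread of each other. The spread includes any group difference: Ifitm3 had means of 19.8 CPM in shScr and 12.6 CPM in shFabp7, and Ifi27 33.8 and 34.2 CPM. The order of these 2 genes within each group was not tested. Ifit3 (10.8 ± 3.03), Cmpk2 (9.61 ± 0.755), Stat2 (9.22 ± 0.563) and Bst2 (7.92 ± 2.45 CPM per kb) came next, again within their spread of each other. Ifi44, Zbp1 and Mx1 were the lowest at 0.390, 0.402 and 0.440 CPM per kb. Among the genes with close to the same level per length, the libraries differed in some and hardly in others. The spread was 0.563 around 9.22 for Stat2 and 2.45 around 7.92 CPM per kb for Bst2. The 13 genes with a core of the response element in their window had a median log2 fold change of -0.51 and a range of -0.71 to 0.10. The 9 with a window and no core had a median of -0.13 and a range of -0.61 to 0.14. The difference between these 2 medians is a description, with no test. Genes without a window are in neither set, and their values ran from -1.02 (Zbp1) to 0.02 (Oas2 and Ifi27). Ifit3 and Ifit3b, whose transcripts share sequence, both count among the 13.

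**Figure D3:**
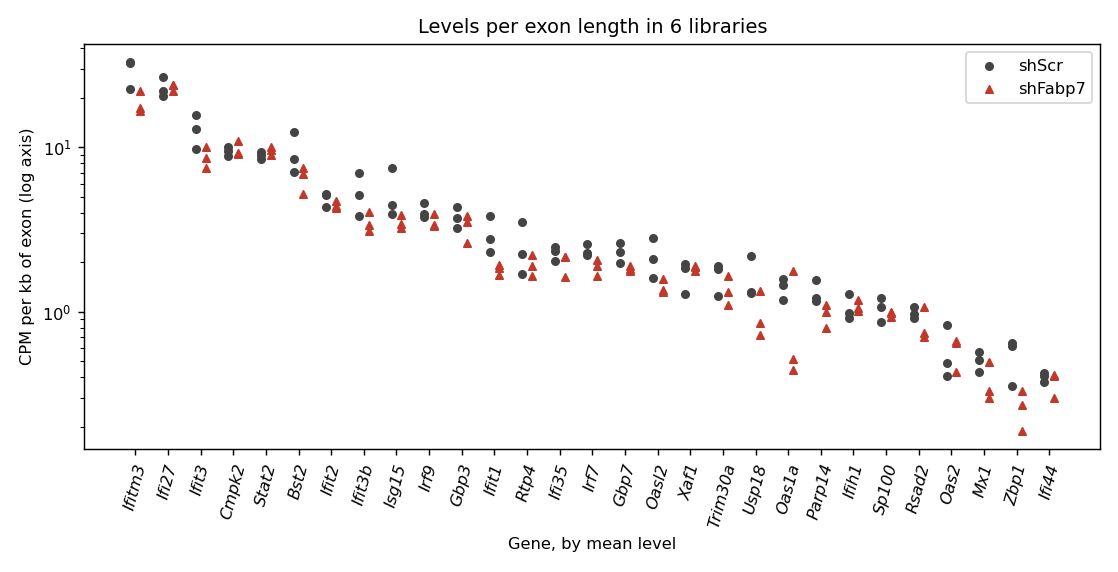
Levels of the 29 genes in CPM per kilobase of exon (vertical log axis), ordered by mean level (horizontal axis), with 1 circle per shScr library and 1 triangle per shFabp7 library. The 2 groups lie on top of each other for Cmpk2 and Stat2 and apart for Ifit1. For Zbp1 they nearly touch, at shFabp7 library 3 and shScr library 1.

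The rest of the pathway was read from the same fit. Transcripts of the interferons themselves were close to absent: the 21 ligand genes together had 1, 1 and 2 reads in shScr against 0, 1 and 0 reads in shFabp7. Ifnb1, the interferon-beta gene, had 0 reads in every library, so a difference in ligand transcripts was not detectable at this depth. For receptors and their kinases the median was -0.01, and 0 of 8 tested genes passed in edgeR, in DESeq2 or at an unadjusted p under 0.05. Jak1, the most abundant of them, had 162, 175 and 181 CPM in shScr against 182, 189 and 176 CPM in shFabp7, and Jak2, a kinase of the interferon gamma receptor, and Ifnar2, a receptor chain, had log2 fold changes of 0.16 and -0.21. Transcription factors had a median of -0.18, with 0 of 7 past the threshold in either tool. At an unadjusted p under 0.05, 1 of 7 (Irf3) was higher, beside 8.44% of all genes. In this list Nlrc5, an activator of MHC class I genes, had -0.47, Irf5 -0.28, Irf2, a repressor, 0.20 and Irf3, the factor that turns on interferon-beta, 0.18, and the signs of Irf5 and Irf2 turned in 1 alternative each. All 3 shFabp7 libraries lay above the shScr libraries for Irf3, at 27.2, 26.8 and 29.4 CPM against 24.6, 24.1 and 24.8 CPM. Irf3 was the 1 of 7 (14.3%) with this order, beside 11.4% of all genes. The opposite order, with all shFabp7 libraries below, was seen for 3 of 7 (42.9%), beside 11.5% of all genes. These were Nlrc5, Irf5 and Irf1, the last named for that order.

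Sensors and adaptors upstream of interferon had a median of -0.05, with 0 of 16 past the threshold in either tool. At an unadjusted p under 0.05, 3 of 16 were lower, beside 8.32% of all genes. Tmem173, which encodes the DNA-pathway adaptor STING, had 5.12, 4.95 and 5.89 CPM in shScr against 4.30, 2.92 and 3.42 CPM in shFabp7. These groups did not overlap (log2 fold change -0.58, SE 0.19, adjusted p = 0.190 in edgeR). Ddx58, the RNA sensor RIG-I and itself induced by interferon, had -0.55, and the abundant signalling genes Traf3 and Tbk1 had 0.02 and 0.05, the sign of Traf3 turning in 2 alternatives. Genes that restrain the pathway had a median of 0.01, with 0 of 9 past the threshold in either tool. At an unadjusted p under 0.05, 1 of these 9 was lower (Socs3) and 1 higher (Ptpn11), beside 8.32% and 8.44% of all genes. Among them Socs3, an inhibitor of cytokine receptors, had 5.88, 9.79 and 5.62 CPM in shScr against 4.00, 3.65 and 4.54 CPM in shFabp7, without overlap and with a log2 fold change of -0.80 (SE 0.23). The phosphatase gene Ptpn11 had 0.16, and the RNA editor gene Adar had -0.01, a sign that turned in 4 alternatives.

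A further 50 tested targets of type I interferon that are not among the 29 had a median of -0.27. Of these, 38 (76.0%) were below 0, beside 51.5% of all genes. In edgeR 0 passed. At an unadjusted p under 0.05, 10 (20.0%) were lower and 2 (4.00%) higher, beside 8.32% and 8.44% of all genes. DESeq2 called 1 of the 50 lower, Lgals3bp (named for that call), where 2.0% of all genes were called lower. shScr library 3 was the highest library for 30 of these 50 (60.0%), as for the 29 genes and against 16.5% of all genes. Ifi207 and Ifi27l2a had the most negative values of those with a mean of at least 1 CPM, -1.17 and -0.96. The 2 most abundant, Ly6e and Znfx1, had 0.25 and 0.24.

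Targets usually assigned to interferon gamma had a median of -0.42, with 25 of 27 (92.6%) below 0, beside 51.5% of all genes. In edgeR 0 of 27 passed. At an unadjusted p under 0.05, 12 (44.4%) were lower and 0 higher, beside 8.32% and 8.44% of all genes. DESeq2 called 3 of the 27 lower, where 2.0% of all genes were called lower. These were Cxcl10, Gbp9 and Psme2, the latter 2 named for that call. Cxcl10, a chemokine that draws T cells, had 4.41, 3.99 and 5.40 CPM in shScr against 1.91, 1.28 and 2.62 CPM in shFabp7. Its groups did not overlap (log2 fold change -1.24, SE 0.27, adjusted p = 0.0845 in edgeR and 0.00597 in DESeq2). Ccl5, another T cell chemokine, had -1.13 with an SE of 0.66, Psme1, a proteasome activator subunit, -0.35, and B2m, the light chain of MHC class I, -0.08, the sign of B2m turning in 2 alternatives. The mean log2 CPM of the list was 2.34, 2.49 and 2.40 in shScr and 2.17, 1.82 and 2.06 in shFabp7. Here the groups did not overlap, and shScr library 3 was the highest library for 8 of 27 genes (29.6%), a smaller share than the 21 of 29 above, though that difference was not tested.

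**Figure D4:**
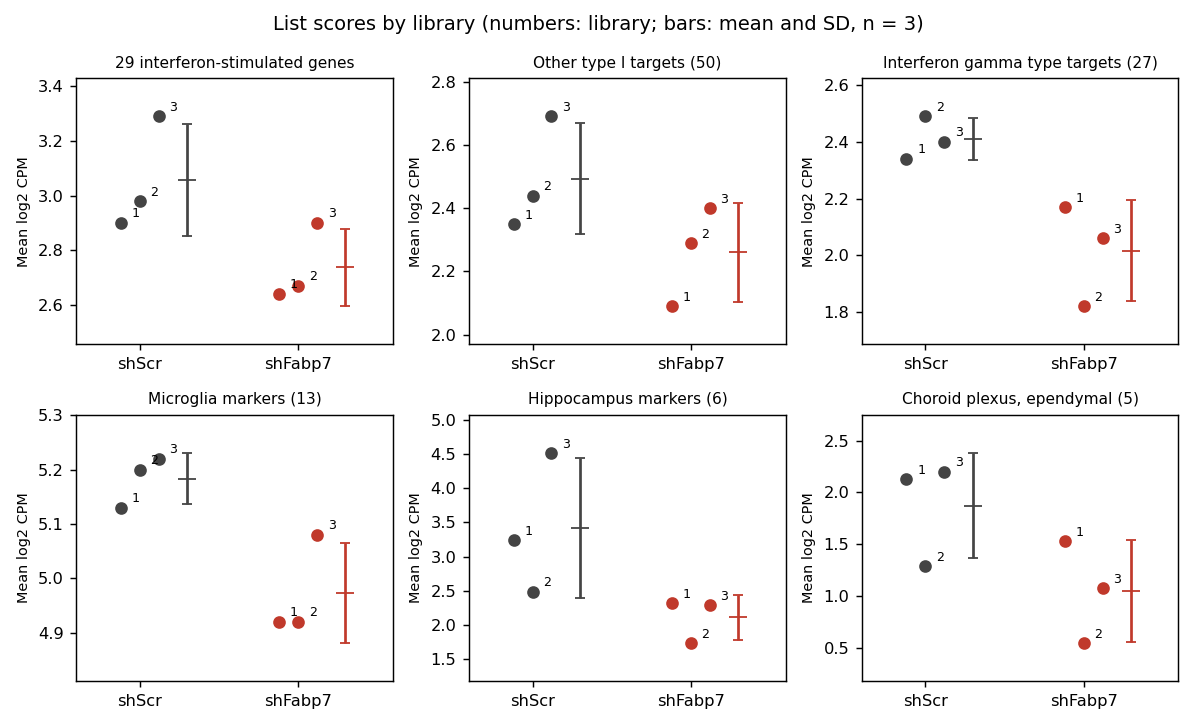
Mean log2 CPM (vertical axes) of 6 gene lists in each library, by group (horizontal axes), with library numbers beside the points and the mean and SD of 3 libraries as bars. shScr library 3 is highest for the 29 genes (3.29), the other type I targets (2.69) and the hippocampus markers (4.51). It is also highest for the microglia markers (5.22, with 5.20 in shScr library 2). The same holds for the choroid plexus and ependymal markers (2.20, with 2.13 in shScr library 1). It is not the highest for the interferon gamma type targets (2.40).

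Markers of other cells moved with the 29 genes in part. In bulk tissue, fewer cells of a type and less RNA per cell cannot be told apart. Of 13 microglia markers 11 had log2 fold changes below 0, beside 51.5% of all genes, with a median of -0.23 and 0 called in edgeR. At an unadjusted p under 0.05, 7 of these markers were lower, beside 8.32% of all genes. DESeq2 called 4 of them lower, where 2.0% of all genes were called lower. The summed level of all 13 was 612 to 646 CPM in shScr and 532 to 589 CPM in shFabp7. C1qa, a complement gene of microglia, had -0.34. All 8 excitatory neuron markers had values above 0, where 51.5% of all genes lay below 0, and their median was 0.44. Of the 8, 3 were higher at an unadjusted p under 0.05, beside 8.44% of all genes. Mean levels of the 8 in log2 CPM were 6.20, 7.30 and 7.08 in shScr against 7.46, 7.51 and 7.32 in shFabp7. Endothelial markers had a median of 0.07 with summed levels of 312 to 410 CPM in shScr and 375 to 387 CPM in shFabp7. Astrocyte markers went both ways, with a median of 0.03 and 0 of 10 called in edgeR. At an unadjusted p under 0.05, 4 of the 10 were lower and 3 higher, beside 8.32% and 8.44% of all genes. Gfap, the filament gene of reactive astrocytes whose promoter drives the vectors, had 249, 240 and 312 CPM in shScr against 134, 161 and 168 CPM in shFabp7. Its groups did not overlap (log2 fold change -0.79, SE 0.12, adjusted p = 0.0597 in edgeR and 1.36e-07 in DESeq2). The water channel gene Aqp4 and the transcription factor gene Sox9 had -0.34 and -0.32, also without overlap, and Aldh1l1 had 0.24 with all shFabp7 libraries above. All 6 hippocampus markers and all 5 tested choroid plexus and ependymal markers had values below 0, beside 51.5% of all genes. The medians were -1.19 and -0.71. Lower at an unadjusted p under 0.05 were 1 of 6 and 3 of 5, beside 8.32% of all genes. DESeq2 called 1 lower in each list, where 2.0% of all genes were called lower. Their summed levels were 130 to 256 and 13.8 to 32.5 CPM in shScr and 110 to 136 and 8.70 to 15.4 CPM in shFabp7. Of 8 meningeal and perivascular fibroblast markers 6 were below 0, with a median of -0.22. DESeq2 called 2 of these 8 lower. The part of these markers in the values of the 29 genes was not tested beyond the fit with the hippocampal score. That fit cannot fully separate the score from the group. Of 8 monocyte and neutrophil markers 0 passed the filter, Ly6g had 0 reads in all libraries and S100a8 had 1 to 14 per library. Of 13 lymphocyte markers 2 passed, Trbc2, a T cell receptor chain gene, and Cd4. Trbc2 had 22, 190 and 92 reads in shScr against 178, 139 and 151 in shFabp7, and Cd4 had 151, 75 and 146 against 75, 68 and 363. Both overlapped between groups, with log2 fold changes of 0.73 and 0.49. The T cell receptor complex genes Cd3d and Cd3e had 0 reads in all libraries and 0 to 5 reads per library.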

How the data were processed

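RNA from mouse cortex was sequenced in 6 libraries prepared with Illumina Stranded mRNA Prep (0.5 µg of total RNA each), per the labels' protocols. What the authors deposited are unnormalized counts of reads for each gene, in featureCounts format per the file headers. Trimmomatic 0.36, STAR 2.5.2b and Subread 1.5.2 are listed in the submitters' processing notes, as are DESeq2 and GRCm39. The gene positions instead matched GENCODE M21 (GRCm38) for 91.4% of 49056 IDs, and for 26 of the 29 genes, and coordinates are taken as GRCm38. No source used here gives the strand setting, so overlapping antisense reads cannot be told apart. Symbols were found for 48970 of 49315 IDs.

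Groups and replicate numbers came from the sample titles. Genes were filtered with filterByExpr, which kept 17185. All 29 genes passed, each with at least 10 counts in all 6 libraries. Libraries were scaled by TMM and tested with edgeR 4.0.16 in R 4.3.3 (quasi-likelihood, robust, group alone, two-sided), with Benjamini-Hochberg adjustment over all genes and a threshold of 0.05. Each SE was derived from the log2 fold change and its F statistic. Levels are CPM, and list scores are means of log2 CPM with a prior count of 2. The scripts were tested on simulated data. Alternatives were DESeq2 1.42.0, scaling by upper quartile or RLE, no filter, 1 CPM in 3 samples, the replicate number as a block, sex read from Xist, each library left out, and, added after seeing the data, a hippocampal score and the removal of shScr libraries 1 and 3. No library was a copy of another: counts of library pairs differed with a chi-square per degree of freedom of 6.48 to 37.4.

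The 29 genes and all lists were chosen with earlier results of these data known. Every one of the 29 is named. Values in every library were given for those of highest mean and largest fold change in each role class. For each pathway list, the 2 with the highest mean and the 2 with the largest fold change at 1 CPM or more were named. Sequence shared between transcripts was counted in 50-base stretches of GENCODE M21 transcripts. Promoter windows (250 bases before to 50 after a start) are from RefSeq.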

Additional observations from a re-analysis of the deposited data

How the results depend on the processing

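The median log2 fold change of the 29 genes was below 0 in all settings run. It was -0.10 with the hippocampal score as a covariate and lay between -0.44 and -0.17 in the others. The difference in mean log2 CPM ranged from -0.40 to -0.20 when single libraries were left out. Of the 29 genes, 19 stayed below 0 and 1 (Stat2) above 0 in all 15 alternatives, and 9 changed sign in at least 1. The number of the 29 genes called, 0 in the main test, was 1 in DESeq2, 7 with no filter and 0 to 4 when single libraries were left out. With the replicate number as a block it was 1 (Ifit3), where 629 of 17185 genes were called in either direction. The number of all genes called, 20, was 696 in DESeq2, 1617 with no filter, 629 with the block, 7 with sex, 292 at a threshold of 0.1, 0 with the hippocampal score, 120 without shScr libraries 1 and 3, and 0 to 900 when single libraries were left out. Same-numbered libraries had correlations of deviations of 0.08, 0.15 and 0.06, so the numbers were not taken as pairs, and 1 of 3 numbers matched its own number best.

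Signs turned as follows. With sex as a covariate Oas2 had -0.21, Ifi27 -0.05 and Adar 0.01. Without shScr library 1 Oas2 had -0.08, Ifih1 -0.07, Ifi27 -0.01, Xaf1 -0.03 and Adar 0.01. Without shScr library 2 Oas2 had -0.18, Ifi27 -0.06, Traf3 -0.03 and Adar 0.02, and without shScr library 3 Ifih1 had -0.02 and B2m 0.02. Without shFabp7 library 1 Ifi44 had 0.04 and Adar 0.0009, without shFabp7 library 2 Oas2 had -0.09 and Cmpk2 -0.04, and without shFabp7 library 3 Oas2 had -0.07, Ifih1 -0.04 and Traf3 -0.0045. With the hippocampal score Isg15 had 0.06, Ifih1 -0.16, Rtp4 0.31, Sp100 0.05, Irf5 0.06 and B2m 0.02. Without shScr libraries 1 and 3, where 1 shScr library is assumed to vary like the shFabp7 libraries, Ifih1 had -0.25, Rtp4 0.18, Ifi44 0.01 and Irf2 -0.03. When single libraries were left out Oas2 ranged from -0.18 to 0.38, Ifih1 from -0.07 to 0.20, Ifi27 from -0.06 to 0.14 and Xaf1 from -0.03 to 0.25. The cause of these changes was not tested.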
